A study of Mus musculus with 6 samples.

Results

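Transcripts of 8 enzymes that make or use the amino sugar donor UDP-GlcNAc and the sialic acid derived from it were measured by RNA sequencing in libraries that carry the label of γδ T cells from mouse spleen. The genes were taken by symbol (Gnpnat1, Pgm3, Uap1, Nagk, Ogt, Mgat5, Gne and Cmas), and all 8 were found among the 52550 genes listed. The cells came from the spleens of C57BL/6 mice and were cultured for 3 days in plates that antibodies against CD3 and CD28 had been bound to. Both groups received IL-23 and IL-1β. The 3 control libraries had nothing more, and for the 3 DON libraries DON was added. The labels do not spell out that abbreviation, which is in use for a glutamine analogue and for a fungal toxin, and they give no dose. No label ties a library to its own mouse or culture, and the p-values therefore reflect only how far these libraries differ, possibly for technical reasons.

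UDP-GlcNAc is made by the hexosamine pathway, which starts from a sugar phosphate of glycolysis and takes an amide nitrogen from glutamine, an acetyl group from acetyl-CoA and a nucleotide from UTP. The product feeds several uses: O-GlcNAc on nuclear and cytosolic proteins, the branches of N-glycans on surface receptors, and the synthesis of sialic acid, which caps those glycans. Activated T cells are known to raise flux into UDP-GlcNAc and protein O-GlcNAc, and N-glycan branching is known to dampen signalling by the T cell receptor in mice.

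The values are normalized counts, in which the authors had divided each library's gene counts by 1 factor. Recovered totals ran from 33715873 to 40840099 units per library, and 1 unit need not be 1 read. DON library 1 stood apart from the other two: 1108 of 17185 tested genes (6.45%) passed a limma adjusted p threshold of 0.05 with all libraries, and 3237 (18.8%) did without it. The change with DON also followed base composition, with a median log2 change of -0.45 in the tenth of tested genes with the lowest transcript GC content (at most 41.1%) and 0.05 in the tenth with the highest (at least 57.5%). Values without DON library 1 and after a correction for GC content are therefore given where they bear on a result. Each library also held transcripts that mark other blood cells, and markers that fell numbered 12 of 12 for B cells, 8 of 10 for neutrophils and 4 of 6 for mast cells and basophils. In such bulk samples fewer cells of a type and less RNA per cell cannot be told apart.

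Of the 8 enzymes, Ogt passed the test and was lower in DON, and 7 did not pass. The background was 6.45% of tested genes called in either direction and 4.15% called lower. Gnpnat1 and Ogt were lower and Nagk and Cmas higher in every DON library than in every control library, so 4 of 8 genes had groups that did not overlap, against 31.4% of all tested genes. The median log2 change of the 8 was -0.12, with a range from -0.51 for Gnpnat1 to 0.65 for Nagk, against a median of 0.00032 over all tested genes. All 8 passed the filter on low values, with at least 10 normalized counts in at least 3 libraries.

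**Figure D1:**
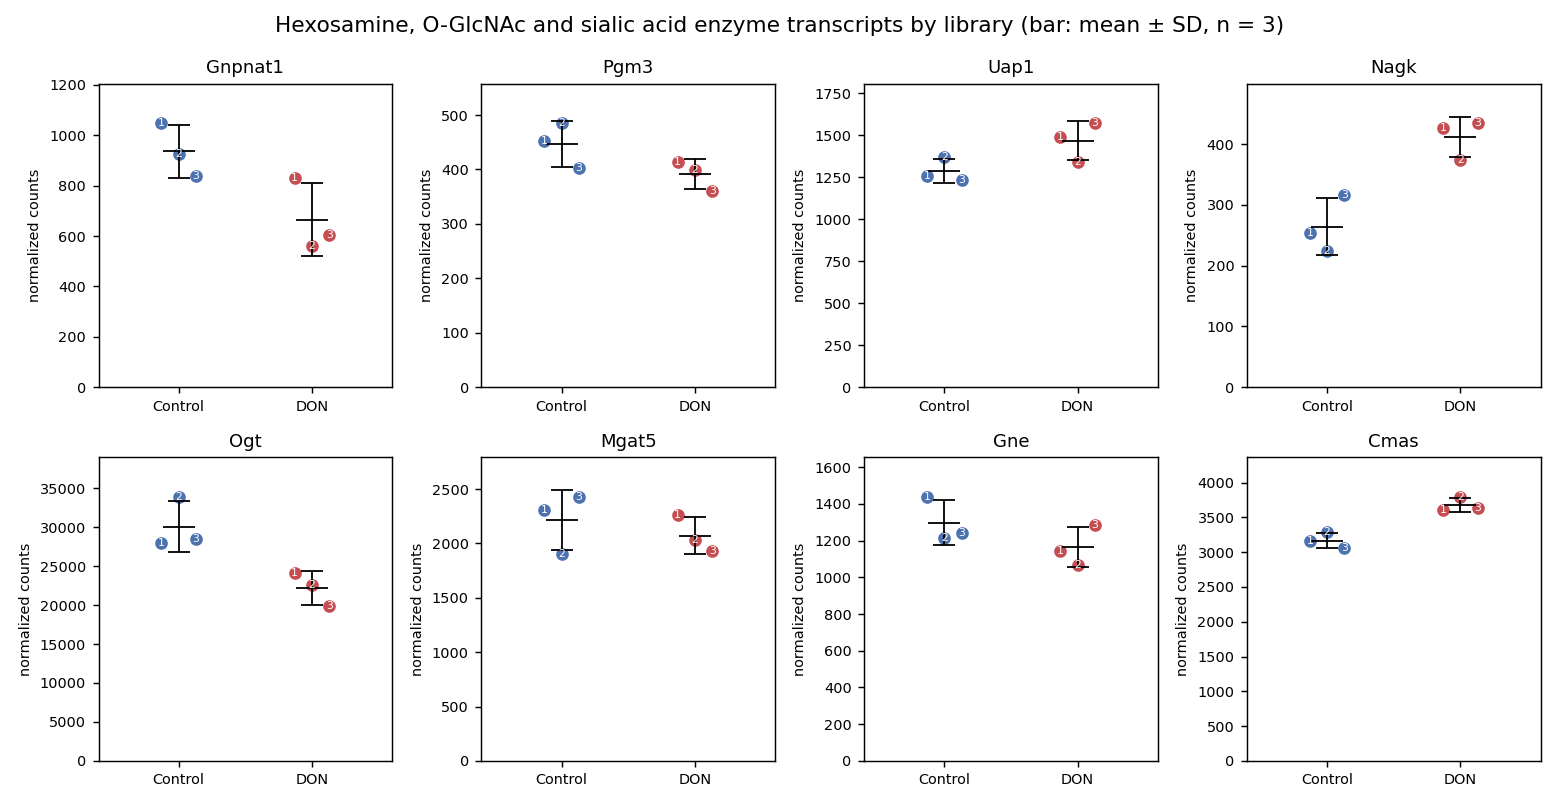
Normalized counts (vertical axis, from 0) of the 8 enzyme genes in the 3 control and 3 DON libraries; points are libraries marked with their replicate number and bars are means ± SD. The groups do not overlap for Gnpnat1, Nagk, Ogt and Cmas, and they overlap for Pgm3, Uap1, Mgat5 and Gne.

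Levels between genes were compared per kilobase of the longest annotated transcript. Ogt stood far above the rest, at 5588 ± 613 normalized counts per kilobase in controls (SD, n = 3), which was 5.71 times the level of Cmas, the next gene, at 979 ± 34.9. Uap1 followed at 558 ± 31.5 and Gnpnat1 at 336 ± 37.7 normalized counts per kilobase. Mgat5 (262 ± 32.8) and Gne (241 ± 22.7) came next and their control libraries overlapped, as did those of Pgm3 (167 ± 15.7) and Nagk (138 ± 24.5), the lowest pair on this scale. In DON the order of the upper 3 genes was the same. The mean of Gnpnat1 (238 ± 51.6) came below that of Mgat5 (246 ± 20.1), but their DON libraries overlapped (201.5 to 297.4 and 228.5 to 267.8). Nagk (215 ± 17.2) came above Pgm3 (147 ± 10.2) without overlap. The longest transcript may not be the one these cells use, which limits the comparison.

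Ogt encodes the O-GlcNAc transferase, the enzyme that attaches GlcNAc to serine and threonine of nuclear and cytosolic proteins. It is listed as ENSMUSG00000034160.13 on chromosome X, 101640060 to 101684351, plus strand. Control libraries 1 to 3 held 27915, 33884 and 28465 normalized counts, and DON libraries 1 to 3 held 24163, 22559.6 and 19838. The groups did not overlap, with control library 2 the highest and DON library 3 the lowest. The mean fell from 30088 ± 3299 to 22187 ± 2187 (SD, n = 3 each), a ratio of 0.737. The log2 change was -0.44 (SE 0.10, 95% interval -0.67 to -0.21, limma adjusted p = 0.0425). The call was at the edge of the threshold, was kept in 8 of 19 alternatives, and ended when any library other than DON library 1 was left out (limma adjusted p from 0.0896 without control library 1 to 0.131 without control library 2). After the GC correction the log2 change was -0.27 (limma adjusted p = 0.0615), and without DON library 1 it was -0.50 (limma adjusted p = 0.0101).

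Oga, the enzyme that removes O-GlcNAc, is listed under its older symbol Mgea5 (ENSMUSG00000025220.7, chromosome 19, 45750261 to 45783520). Controls held 11280.1, 13293 and 12587 normalized counts and DON libraries 10529.5, 7853 and 7352, again with no overlap, and DON library 1 was the nearest to the controls. The log2 change of -0.54 (SE 0.13) narrowly failed the threshold (limma adjusted p = 0.0541). It was -0.70 without DON library 1 (limma adjusted p = 0.000991) and -0.53 after the GC correction (limma adjusted p = 0.0331). It passed in 5 of 19 alternatives, and not when any other single library was left out (limma adjusted p from 0.105 to 0.173). Without DON libraries 2 and 3 the log2 change was -0.23 (limma adjusted p = 0.313). The log2 ratio of Ogt to Mgea5 within a library was 1.31, 1.35 and 1.18 in controls and 1.20, 1.52 and 1.43 in DON. These ratios overlapped and did not separate the groups (1.28 ± 0.09 against 1.38 ± 0.17, exact two-sided permutation p = 0.4, where the smallest possible is 0.1). In human cells both genes are known to make transcripts that keep an intron and stay in the nucleus, in amounts that follow protein O-GlcNAc; values per gene do not tell these from spliced transcripts. Mgea5 shares 2050 bases with Gm15491 on the opposite strand, which held 1233 ± 111 normalized counts in controls and 1229 ± 214 in DON. Eogt, the transferase of the secretory pathway, and Hcfc1, a transcriptional coregulator that OGT cleaves, had log2 changes of -0.20 and 0.21 and did not pass (limma adjusted p = 0.315 and 0.292).

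The upstream sequences of Ogt and Nagk are shown because these were the enzymes with the smallest adjusted p, in opposite directions. RefSeq promoter entries (GRCm38) matched 7 of 8 genes, all but Gnpnat1, and each stretch is the 250 bases before the annotated start, 5′ to 3′ on the gene's strand. Capitals mark the GC box GGGCGG, the ETS-type motif CCGGAAG and the sequence CGCATGCGC on either strand. These motifs were chosen after the sequences had been read and do not overlap each other here.
Ogt, chrX:101639801-101640050, plus strand: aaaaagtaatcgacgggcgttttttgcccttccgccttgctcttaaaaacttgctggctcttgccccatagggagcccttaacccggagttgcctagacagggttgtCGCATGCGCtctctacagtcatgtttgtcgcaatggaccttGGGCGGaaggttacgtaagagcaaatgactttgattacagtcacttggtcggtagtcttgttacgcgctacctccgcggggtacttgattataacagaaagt
Nagk, chr6:83794750-83794999, plus strand: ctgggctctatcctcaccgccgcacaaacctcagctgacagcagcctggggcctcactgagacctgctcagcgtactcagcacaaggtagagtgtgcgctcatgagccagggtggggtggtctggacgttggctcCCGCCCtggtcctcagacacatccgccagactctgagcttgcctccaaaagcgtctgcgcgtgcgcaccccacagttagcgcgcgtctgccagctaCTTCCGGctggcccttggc
The Ogt stretch shown held CGCATGCGC, which 1.45% of 32851 promoter stretches of this length hold, and a GC box, which 32.7% hold. Another Ogt entry, chrX:101639968-101640217, is not shown and held a GC box but not CGCATGCGC. The Nagk stretch held a GC box and CCGGAAG, the latter found in 6.91% of promoter stretches and also upstream of Pgm3. The E-box CACGTG was found in none of the 9 stretches of these 7 genes on either strand, and occurs in 6.02% of all promoter stretches. The same held for the letters TGACGTG, which occur in 1.65%. It also held for the amino acid response motif TGATGNAA, which occurs in 3.45%. A match is a description of the letters and not a binding site.

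The synthesis route to UDP-GlcNAc was measured step by step. Gfpt1, which encodes the glutamine-dependent entry enzyme (ENSMUSG00000029992.14), had 4295, 4257 and 4117 normalized counts in control libraries and 3874, 4176 and 4079 in DON libraries. The groups overlapped, and the log2 change of -0.06 had a 95% interval from -0.21 to 0.08 (limma adjusted p = 0.576). Its paralogue Gfpt2 was close to the filter, at 24.6 ± 13.7 and 16.0 ± 14.5 normalized counts (limma adjusted p = 0.59).

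Gnpnat1 acetylates glucosamine phosphate with acetyl-CoA (ENSMUSG00000037722.7, chromosome 14, 45376334 to 45388802, minus strand). Controls held 1048, 924 and 839 normalized counts and DON libraries 829, 562 and 603. DON library 1 lay just under control library 3, and DON libraries 2 and 3 lay well below. The mean was 937 ± 105 in controls and 665 ± 144 in DON (log2 change -0.51, 95% interval -0.89 to -0.13), and it did not pass (limma adjusted p = 0.104). Without DON library 1 it did (log2 -0.68, limma adjusted p = 0.00953). Its longest transcript has the lowest GC content of the 8, at 39.0%, and after the GC correction the log2 change was -0.10 (limma adjusted p = 0.637).

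Reads of Gnpnat1 may be shared with other genes, and its value is uncertain for that reason. Gm14698 on chromosome X (68821093 to 68825318) has a transcript 99.8% identical to Gnpnat1 over 552 bases in the opposite direction. It fell from 532 ± 32.4 to 260 ± 31.3 normalized counts (SD, n = 3 each, log2 -1.04, limma adjusted p = 0.00622). Summing both genes gave -0.68 on the log2 scale (limma adjusted p = 0.0312). The changes in this paragraph are without the GC correction. GENCODE release M21 extends Styx across Gnpnat1 on the other strand, with 2153 bases in common, although the deposited positions of these genes do not overlap; Styx fell by 1.00 on the log2 scale (limma adjusted p = 0.018). Both genes were named after their values were seen. The sources used here do not say whether strand was kept in counting.

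Pgm3 moves the phosphate of acetylglucosamine phosphate to the position needed for the next step (ENSMUSG00000056131.13, chromosome 9, 86554377 to 86571842, minus strand). Controls held 453, 485 and 402 normalized counts and DON libraries 413, 399.6 and 361. The groups overlapped through control library 3. The mean was 447 ± 41.8 in controls and 391 ± 27.2 in DON (log2 -0.19, 95% interval -0.48 to 0.10, limma adjusted p = 0.381). Pgm3 shares 1547 bases with Dopey1 on the opposite strand, which held 4226 ± 210 and 4437 ± 605 normalized counts, so part of its small count may come from that gene. Summed with Dopey1, the log2 change was 0.041 (limma adjusted p = 0.83). Dopey1 holds most of the summed counts and moved by 0.063 on its own, so the sum does not show the direction of Pgm3.

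Uap1 joins the sugar phosphate to UTP and so completes UDP-GlcNAc (ENSMUSG00000026670.15, chromosome 1, 170141938 to 170174957, minus strand). Controls held 1257, 1372 and 1237 normalized counts and DON libraries 1492, 1341 and 1572. DON library 2 lay within the controls and the other DON libraries above them. The mean was 1289 ± 72.7 in controls and 1468 ± 118 in DON (log2 0.19, 95% interval -0.03 to 0.40, limma adjusted p = 0.256). For Uap1l1, a paralogue of Uap1, the log2 value moved by -0.20 and did not pass (limma adjusted p = 0.449). None of the synthesis genes from Gfpt1 to Uap1 passed the limma test. At an unadjusted p under 0.05 Gnpnat1 was the 1 gene of these 5 that passed. It was also the 1 gene called in DESeq2 (adjusted p = 0.0496), and edgeR called 0.

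Of the salvage and breakdown genes, Gnpda1 and Amdhd2 rose and Nagk narrowly failed the test. Nagk phosphorylates free GlcNAc, which returns it to the pathway (ENSMUSG00000034744.13, chromosome 6, 83794982 to 83804018, plus strand). Controls held 253, 224 and 316 normalized counts and DON libraries 427, 374 and 435. The groups did not overlap, with control library 3 the highest control. The mean was 264 ± 47.0 in controls and 412 ± 33.1 in DON, a ratio of 1.56. The log2 change of 0.65 was the largest of the 8 in size (95% interval 0.28 to 1.02) and narrowly failed the threshold (limma adjusted p = 0.0543). It was 0.60 after the GC correction (limma adjusted p = 0.0585) and passed in 2 of 19 alternatives, quantile normalization (limma adjusted p = 0.0399) and DESeq2 (adjusted p = 0.0113). It did not pass in edgeR on recovered units (adjusted p = 0.0634) or when any single library was left out (limma adjusted p from 0.0564 to 0.164).

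Among 8 related genes of hexosamine entry, salvage and breakdown, 2 rose, 0 fell and 6 did not pass, where 2.3% of all tested genes were called higher. Gnpda1, which removes the amino group and returns the sugar to glycolysis (ENSMUSG00000052102.14), rose from 1433 ± 51.6 to 1968 ± 108 normalized counts (SD, n = 3 each). Controls held 1474, 1375 and 1449 and DON libraries 1852, 2064 and 1989, with a wide gap between the groups (log2 0.46, SE 0.08, limma adjusted p = 0.0199). Amdhd2, the deacetylase that takes GlcNAc phosphate back one step (ENSMUSG00000036820.11), rose from 691 ± 61.4 to 956 ± 46.4 normalized counts (log2 0.47, SE 0.10, limma adjusted p = 0.0403). After the GC correction both passed, with log2 changes of 0.40 and 0.42 (limma adjusted p = 0.0154 and 0.0329). Both lost the call when any library other than DON library 1 was left out (limma adjusted p from 0.0694 to 0.0873 for Gnpda1 and from 0.0694 to 0.14 for Amdhd2). Renbp (log2 0.32), Gnpda2 (-0.18) and Galk2 (-0.09) were the other members that did not pass beside Gfpt1, Gfpt2 and Uap1l1.

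**Figure D2:**
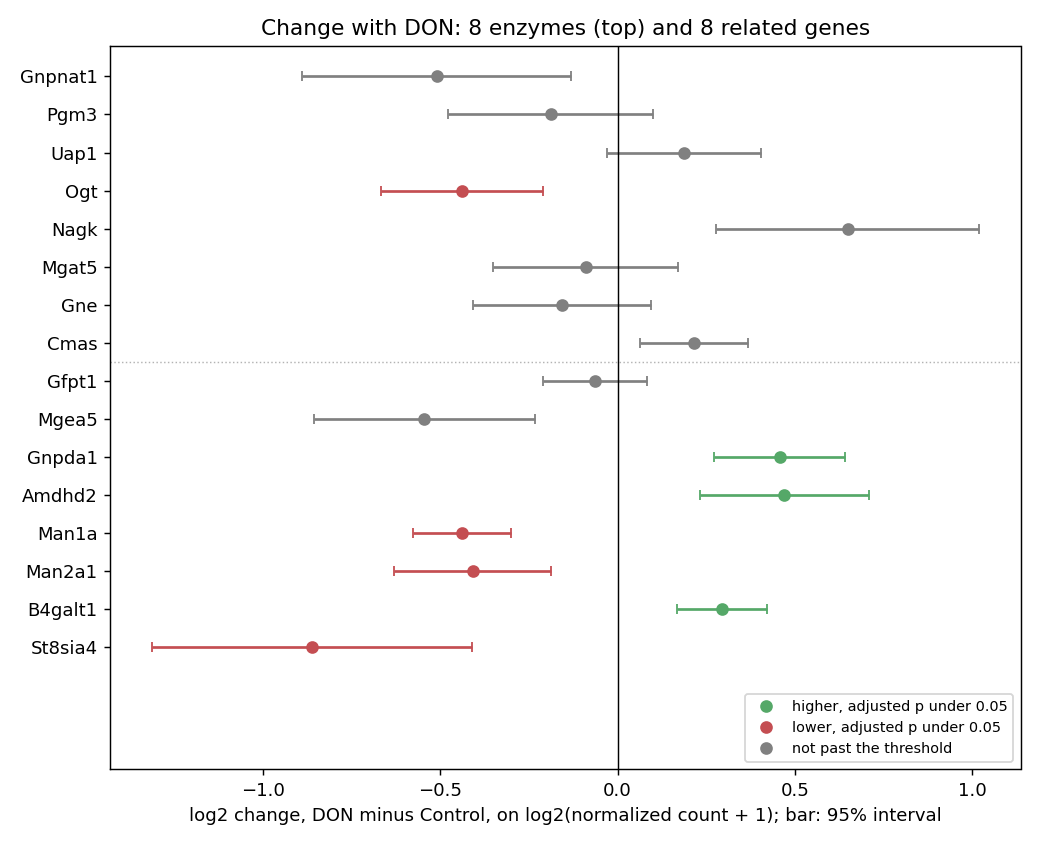
Log2 change, DON minus Control (horizontal axis, on log2(normalized count + 1)), of the 8 enzymes above the dotted line and 8 related genes below it; points are estimates, bars 95% intervals and colours the limma call. Ogt is at -0.44 and Nagk at 0.65, Gfpt1 is near 0, and Gnpda1 and Amdhd2 lie above 0.

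Mgat5 adds the GlcNAc branch of N-glycans that galectins bind and is the branching enzyme best known from T cells (ENSMUSG00000036155.13, chromosome 1, 127205015 to 127488336, plus strand). Controls held 2309, 1901 and 2427 normalized counts and DON libraries 2259, 2029 and 1928. All 3 DON libraries lay within the range of the controls. The mean was 2212 ± 276 in controls and 2072 ± 170 in DON (log2 -0.09, limma adjusted p = 0.659), and the 95% interval from -0.35 to 0.17 bounds the change these libraries allow. Tmem163, which shares 1791 bases with Mgat5 on the opposite strand, held 144 ± 19.1 and 110 ± 5.59 normalized counts in controls and DON. Gm8451, within Mgat5 on that strand, held 129 ± 32.8 and 123 ± 22.1.

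Of 18 other genes that start, trim or extend N-glycans, 15 were tested; 1 rose (2.3% of all tested genes did), 2 fell (4.15% of all tested genes did) and 12 did not pass, with a median log2 change of -0.19. The genes that fell encode mannosidases of the Golgi, which trim N-glycans. The other mannosidase genes of the list did not pass, Man1a2 (log2 -0.50, limma adjusted p = 0.0598) and Man2a2 (log2 -0.22, limma adjusted p = 0.476, groups overlapping). Man1a2 was called after the GC correction and without DON library 1, and Man2a2 was not. Man1a (ENSMUSG00000003746.16) fell from 7373 ± 141 to 5440.4 ± 199 normalized counts (SD, n = 3 each). Controls held 7315, 7269.9 and 7533 and DON libraries 5622, 5471 and 5228, with little spread in either group (log2 -0.44, SE 0.06, limma adjusted p = 0.00752). Man2a1 (ENSMUSG00000024085.13) fell from 4960.2 ± 227 to 3754 ± 465 normalized counts (log2 -0.41, SE 0.10, limma adjusted p = 0.0472), and by 0.21 on the log2 scale when DON libraries 2 and 3 were left out (limma adjusted p = 0.294). B4galt1, which adds galactose to the branches (ENSMUSG00000028413.13), rose from 6020 ± 101 to 7383 ± 91.9 normalized counts (log2 0.29, SE 0.05, limma adjusted p = 0.0244). The Man1a call ended without control library 3 (limma adjusted p = 0.0525), and those of Man2a1 and B4galt1 without any library other than DON library 1 (limma adjusted p from 0.114 to 0.155 and from 0.0738 to 0.106). In edgeR on recovered units Man2a1 was not called and the other 2 were; with units divided by 4 edgeR called all 3. After the GC correction all 3 passed, with log2 changes of -0.38, -0.41 and 0.24. Mgat1, Mgat2, Mgat4a and Mgat4b, the other tested branching enzymes, had log2 changes of 0.21, 0.05, -0.15 and -0.19 and did not pass. The direction for Mgat1 rested on DON library 3, at 1170 normalized counts, while DON libraries 1 and 2 (644 and 647) lay below the controls (678 to 684).

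**Figure D3:**
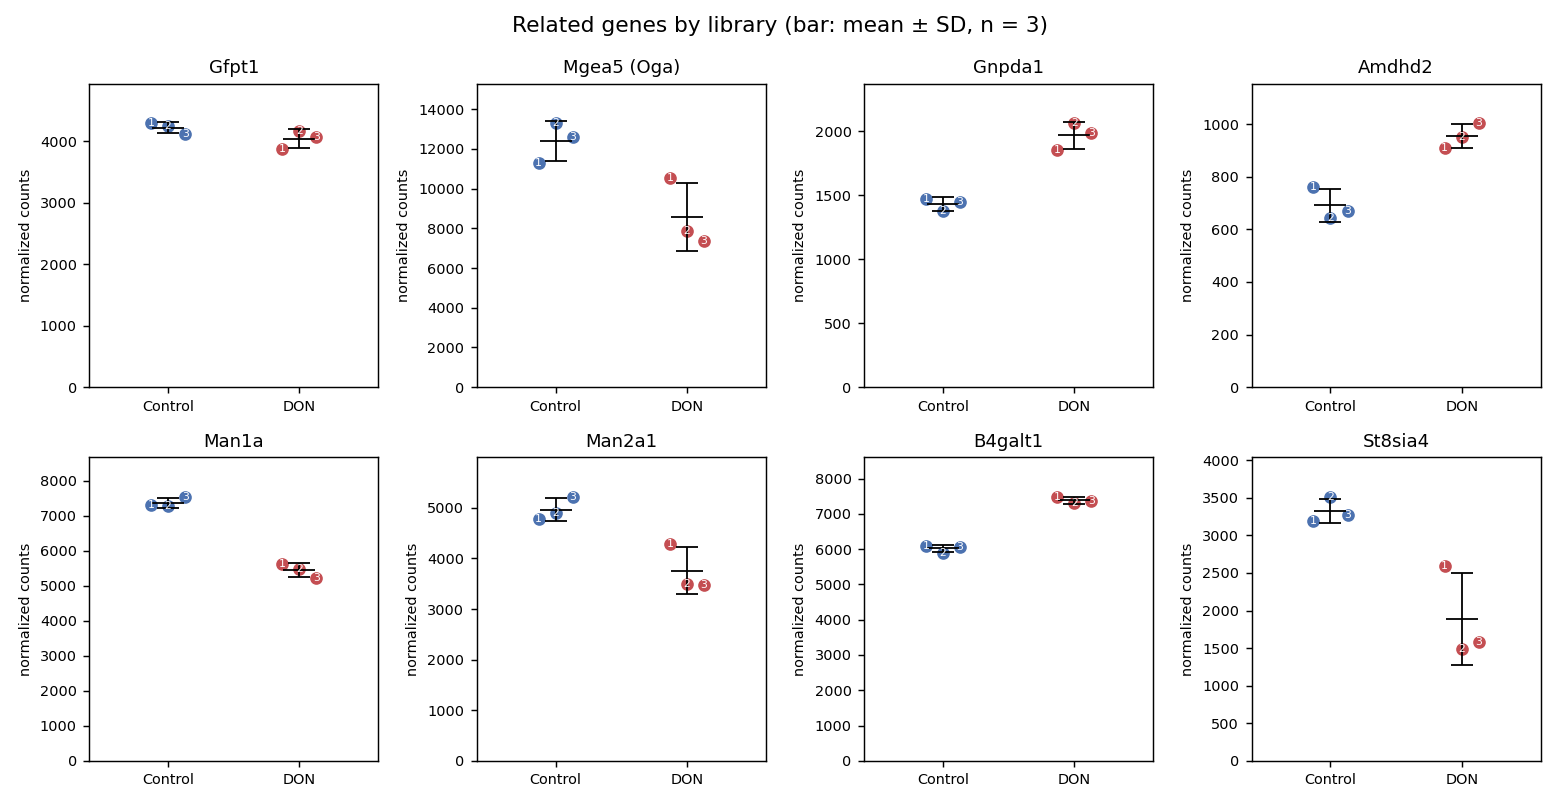
Normalized counts (vertical axis, from 0) of 8 related genes in the 3 control and 3 DON libraries; points are libraries marked with their replicate number and bars are means ± SD. Gfpt1 overlaps between groups, the other genes do not, and DON library 1 lies nearest to the controls for Mgea5, Gnpda1, Amdhd2, Man1a, Man2a1 and St8sia4, though not for B4galt1.

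Sialic acid synthesis branches off from UDP-GlcNAc through Gne, which encodes the epimerase and kinase that sets its rate (ENSMUSG00000028479.18, chromosome 4, 44034075 to 44084177, minus strand). Controls held 1438, 1214 and 1243 normalized counts and DON libraries 1142, 1069 and 1283. DON library 3 lay within the controls and the other DON libraries below them. The mean was 1298 ± 122 in controls and 1164 ± 109 in DON (log2 -0.16, 95% interval -0.41 to 0.09, limma adjusted p = 0.399).

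Cmas activates sialic acid with CTP in the nucleus, which makes the donor of all sialyltransferases (ENSMUSG00000030282.14, chromosome 6, 142756686 to 142775714, plus strand). Controls held 3158, 3284 and 3059 normalized counts and DON libraries 3601, 3793 and 3635. The groups did not overlap and each was tight. The mean was 3167 ± 113 in controls and 3676 ± 103 in DON, a ratio of 1.16 (log2 0.22, 95% interval 0.06 to 0.37), and it did not pass (limma adjusted p = 0.0915). Without DON library 1 it passed (log2 0.23, limma adjusted p = 0.0462), and after the GC correction it did not (log2 0.16, limma adjusted p = 0.122).

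Of 10 other genes of sialic acid synthesis, transport and removal, 8 were tested and none passed in limma, with 0 at an unadjusted p under 0.05. The count was also 0 in edgeR and in DESeq2. Nans and Nanp, the synthase and phosphatase between Gne and Cmas, had log2 changes of 0.10 and -0.10. Cmah, which hydroxylates the sialic acid donor in mice, held 17081, 16635 and 16436 normalized counts in controls and 19164, 36019.8 and 16574 in DON. DON library 2 alone stood far above the rest (limma adjusted p = 0.323). Of 20 sialyltransferase genes 16 were tested, 1 fell, against 4.15% of all tested genes, 0 rose and 15 did not pass. Without DON library 1, St3gal6, St8sia1, St8sia4 and St8sia6 were called, where 18.8% of all tested genes were. St8sia4, which builds polysialic acid (ENSMUSG00000040710.10), held 3195, 3512 and 3268 normalized counts in controls and 2593, 1482 and 1588 in DON (log2 -0.86, SE 0.20, limma adjusted p = 0.0435). Without DON library 1 its log2 change was -1.11 (limma adjusted p = 0.000163). Its transcript is low in GC content (36.1%); after the GC correction the log2 change was -0.27 (limma adjusted p = 0.0527), and without DON libraries 2 and 3 it was -0.36 (limma adjusted p = 0.133). The St8sia4 call also ended in edgeR on recovered units, though not with units divided by 4, and when any library other than DON library 1 was left out (limma adjusted p from 0.115 to 0.146).

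Over all related lists together, 3 of 50 tested genes rose, 3 fell and 44 did not pass, against 2.3% higher and 4.15% lower over all tested genes, and 9 listed genes were below the filter. Their median log2 change was -0.10. St6gal1, which caps N-glycans with sialic acid and is also abundant in B cells, moved by 0.36 on the log2 scale, with no overlap between groups, and did not pass (limma adjusted p = 0.17).

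Patterns across the 6 libraries were compared by the root mean square difference of log2 values, each gene centred on its own control mean, among 10775 genes with a mean of at least 100 normalized counts. Closest to Ogt were Nudcd1 (0.045), Zbtb10 (0.059) and Otud6b (0.068), against a median of 0.39 over these genes. None of these 3 passed (limma adjusted p from 0.0949 to 0.137). Closest to Nagk were Cadm1 (0.096), Fblim1 (0.11) and Tmem147os (0.11), against a median of 0.50. Tmem147os passed (limma adjusted p = 0.0209), and Cadm1 and Fblim1 did not. The closest genes lie below the median by selection, so the distances only describe patterns. Like Ogt, the first 3 were highest in control library 2 and lowest in DON library 3.

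Trdc, the constant gene of the δ chain, was present in the libraries, with means of 4568 normalized counts in controls and 4451 in DON (log2 -0.04, limma adjusted p = 0.749). Cd3d, a chain of the receptor complex of all T cells, rose (log2 0.42, limma adjusted p = 0.0472), and Il23r, a receptor chain for IL-23, fell (log2 -1.04, limma adjusted p = 0.0419). The constant genes of the γ chain were not analysed here. The 6 αβ T cell markers summed to 1846 to 1945 CPM in controls and 1897 to 2207 in DON (0 rose, 0 fell). CPM are units scaled to a common library total. In normalized counts the control means of these 6 ran from 7900 (Cd8a) to 18401 (Trbc2). All of them were above the control mean of Trdc, without a correction for transcript length. B cell markers summed to 1936 to 2021 CPM in controls and 1324 to 1536 in DON, and neutrophil markers to 323 to 344 and 75.3 to 90.9. Of 10 macrophage markers 5 rose and 1 fell, and their sum was 539 to 551 in controls and 526 to 598 CPM in DON. Mast cell and basophil markers summed to 30.4 to 33.0 and 8.04 to 10.6, dendritic cell markers to 224 to 233 and 211 to 215 (1 fell), and erythroid markers to 672 to 694 and 769.6 to 924 CPM (1 rose). No marker found in the files was at 0 in all libraries. The part of these cells in the values of the 8 enzymes was not tested.

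**Figure D4:**
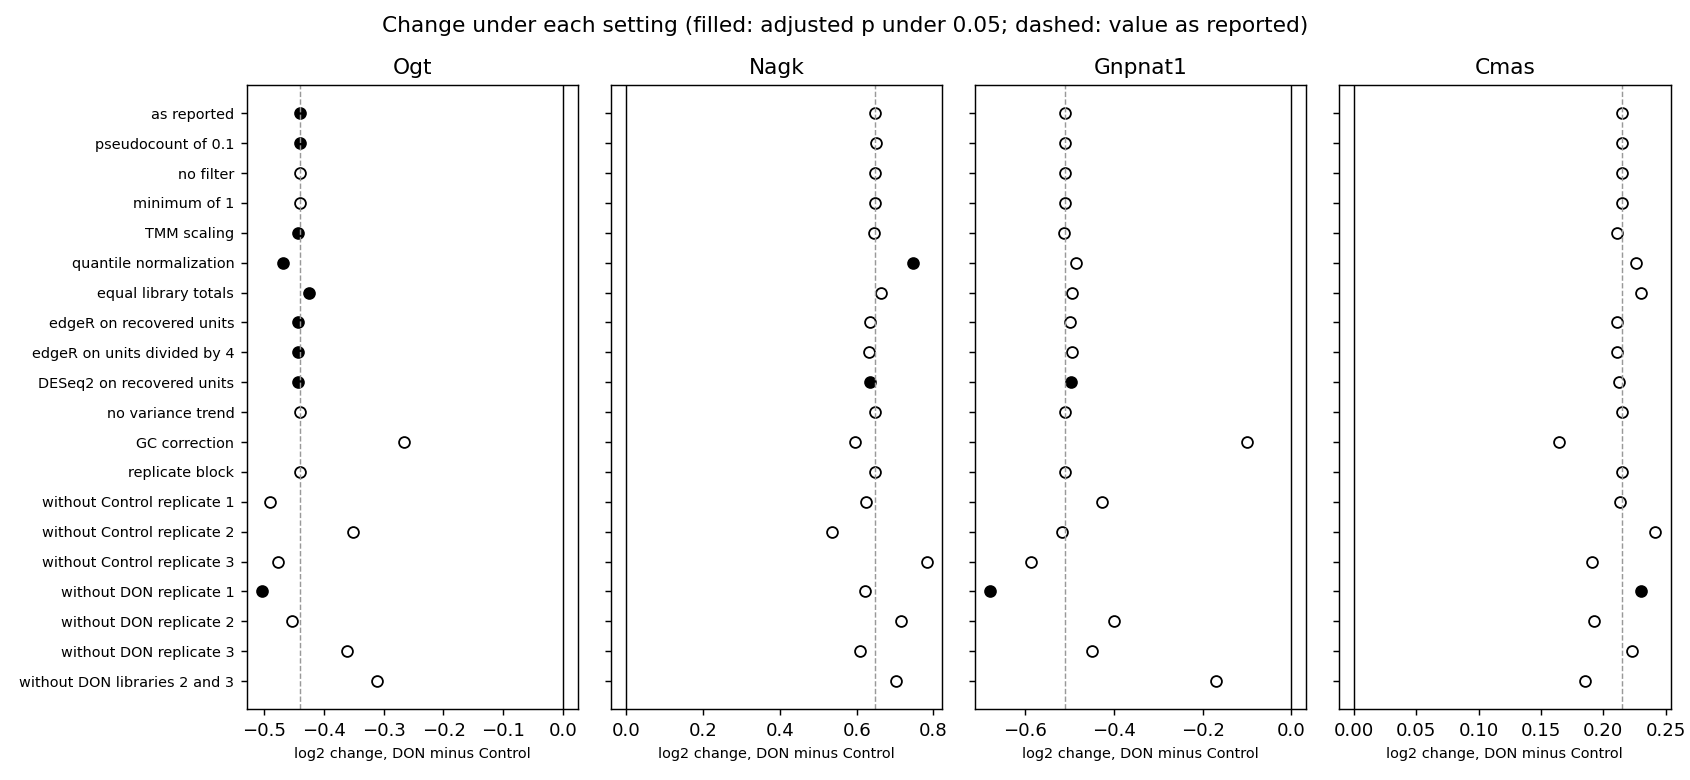
Log2 change, DON minus Control (horizontal axis), of Ogt, Nagk, Gnpnat1 and Cmas as reported and under 19 other settings (rows); filled points have an adjusted p under 0.05 and dashed lines mark the reported value. Directions hold in all settings shown. The Ogt, Gnpnat1 and Cmas points move toward 0 under the GC correction and without DON libraries 2 and 3. The Nagk point moves toward 0 under the GC correction and away from 0 without DON libraries 2 and 3.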

How the data were processed

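Per the file headers, the deposited files hold normalized counts per gene, a signal in which the authors divided gene counts by 1 factor per library. All values above 0 (100%) were whole multiples of 1 step per library (tolerance 0.001), so undivided units were recovered; a count of exactly 4 units was held by 854 to 903 genes and one of 3 units by 382 to 446, so a unit need not be a read. The submitters' processing notes name HISAT2, StringTie, mm8 and mm10, without roles or versions; the counter and its strand setting are not given in the sources used here. Positions are those in the files, and 49909 of 52550 genes have the same position in GENCODE release M21 (GRCm38).

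Where several genes had the same symbol, their values were added. Genes with at least 10 normalized counts in at least 3 libraries (17185) were fitted with limma 3.58.1 in R 4.3.3 on log2(normalized count + 1), with a variance trend, two-sided, with Benjamini-Hochberg adjustment over all of them. Fold changes on this scale understate changes of low genes. Intervals are for the mean difference between groups, from the spread between libraries as moderated across genes. On simulated data over 17185 genes the fit recovered 28% of 100 planted changes of log2 size 0.5, 70% of 100 of size 1 and 90% of 100 of size 2. There were 6 false calls among 194, and changes were planted in genes with control means above 100 normalized counts. The simulated noise was independent between genes and libraries, with no library set apart and no GC trend. These rates therefore need not hold for the real libraries. Alternatives were other pseudocounts, filters and scalings, edgeR 4.0.16 and DESeq2 1.42.0 on recovered units, a loess correction (span 0.5) for the GC content of the longest transcript, known for 99.8% of tested genes, the replicate number as a block, and libraries left out. With DON libraries 2 and 3 left out, 1 DON library remains, and its spread is taken to be that of the controls. BLAST 2.17.0 was used to look for near-identical transcripts, with a minimum identity of 90% and a minimum alignment of 200 bases.

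The 8 genes, the lists and the tests were chosen with earlier results of these data known. Named beside the 8 were Gfpt1, Gfpt2, Mgea5, related genes past the threshold, and the 3 genes most alike in pattern to the enzymes with the 2 smallest adjusted p; other related genes were named after their values were seen. Sums with Gm14698 and Dopey1 were added after seeing the data. The summed γδ T cell marker list is not reported here.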

Additional observations from a re-analysis of the deposited data

How the results depend on the processing

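Ogt was the gene called among the 8 with all libraries, and the count was 0 with no filter, at a minimum of 1 normalized count, without a variance trend, after the GC correction, with the replicate number as a block and without DON libraries 2 and 3. It was 2 under quantile normalization and 3 in DESeq2, and 0 to 3 when single libraries were left out. The related genes called (6) numbered 3 with no filter, 0 without a variance trend, 0 with the replicate block and 2 without DON libraries 2 and 3, and 0 to 12 when single libraries were left out. Over all genes the 1108 calls became 703 with no filter, 2134 in DESeq2, 363 without a variance trend, 288 with the replicate block and 358 without DON libraries 2 and 3, and 260 to 3237 when single libraries were left out (3237 without DON library 1, and at most 391 without any other). Summing Pgm3 with Dopey1 gave a log2 change above 0 (0.041), but Dopey1 holds most of the summed counts. Mgat5 reversed without DON libraries 2 and 3 (log2 0.038). No other change of direction occurred among the 8 genes in the alternatives run. The cause of these differences was not tested. Deviations from the group means were compared between control and DON libraries. They correlated at r from -0.06 to -0.05 for the same replicate number and from 0.01 to 0.04 for unlike numbers. Values this near 0 do not show a pairing, and they cannot exclude one that is small beside the other spread between libraries. With the block Ogt had an adjusted p of 0.0809 in limma. Nagk, with 204 to 446 units per library, is the thinnest of the 8 in counts.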
